A study of Mus musculus with 8 samples.

Results

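A set of 10 genes that SMAD signalling switches on, and that report on it or feed back on it, were followed in mouse hepatic stellate cells: Id1, Id2, Id3, Id4, Smad6, Smad7, Skil, Pmepa1, Smurf1 and Smurf2. They were chosen by symbol, with earlier results of these data known. All 10 of 10 had a probe set assigned to that symbol alone, among 19938 genes measured. The cells came from male Balb/c mice and were profiled on a whole-transcript Affymetrix gene array with RMA log2 values, 4 arrays per group. Quiescent cells came from normal mice. Reverted cells came from mice given the liver toxin CCl4 (carbon tetrachloride), which causes fibrosis, in 4 doses of 0.5 µl per g of body weight at 2 per week, and then left without treatment for 45 days. Both groups were enriched by density, sorted on retinoid autofluorescence and lysed straight after the sort, so that neither had been cultured. The labels give an age of 18 weeks for normal mice and both 18 and 16 weeks for the reverted group. No label says whether an array holds cells of 1 mouse or of a pool, so that the p-values below measure only how these samples vary, and part of that variation could be technical.

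TGF-beta and bone morphogenetic proteins (BMPs) signal through receptor serine kinases that phosphorylate SMAD proteins. BMP receptors mainly use SMAD1, SMAD5 and SMAD9, and TGF-beta and activin receptors mainly use SMAD2 and SMAD3, each together with SMAD4. Among the earliest targets of the BMP branch are the Id genes, whose proteins have a helix-loop-helix domain but no DNA-binding region and so keep E proteins and other bHLH factors off DNA. Both branches also induce their own brakes. SMAD6 and SMAD7 are inhibitory SMADs, SMURF1 and SMURF2 are ubiquitin ligases that these SMADs bring to the receptors, SKIL (SnoN) is a corepressor bound to SMADs, and PMEPA1 is a membrane protein that withholds receptor-regulated SMADs. In stellate cells TGF-beta is the main fibrogenic cytokine, and SMAD7 antagonises it.

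Start-site windows of 300 bases, from 250 before to 50 after the start, were listed for 6 of the 10 genes in RefSeq (GRCm38.p6). They were searched on both strands for the palindromic SMAD-binding element GTCTAGAC, for the CAGA motif CAGACA, and for the GC-rich BMP-response motifs GGCGCC and GGAGCC. No matches overlapped. Shown are the windows of the 4 genes among these whose mean was lower in reverted cells (Id2, Id3, Id4 and Smad6), with every match in capitals and each strand read in the direction of the gene.
Id2 (chr12:25096043-25096342, minus strand): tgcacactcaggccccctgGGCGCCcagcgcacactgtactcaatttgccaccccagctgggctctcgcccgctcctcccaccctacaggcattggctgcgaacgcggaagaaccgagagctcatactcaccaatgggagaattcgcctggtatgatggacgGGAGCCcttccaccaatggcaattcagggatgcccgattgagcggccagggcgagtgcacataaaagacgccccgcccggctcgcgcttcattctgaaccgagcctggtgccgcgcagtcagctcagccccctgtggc
Id3 (chr4:136143572-136143871, plus strand): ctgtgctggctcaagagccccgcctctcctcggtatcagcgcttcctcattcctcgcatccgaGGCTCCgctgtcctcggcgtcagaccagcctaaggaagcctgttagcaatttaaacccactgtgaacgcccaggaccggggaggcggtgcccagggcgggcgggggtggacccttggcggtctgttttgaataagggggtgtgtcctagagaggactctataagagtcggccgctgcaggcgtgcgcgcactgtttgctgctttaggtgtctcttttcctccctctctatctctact
Id4 (chr13:48260866-48261165, plus strand): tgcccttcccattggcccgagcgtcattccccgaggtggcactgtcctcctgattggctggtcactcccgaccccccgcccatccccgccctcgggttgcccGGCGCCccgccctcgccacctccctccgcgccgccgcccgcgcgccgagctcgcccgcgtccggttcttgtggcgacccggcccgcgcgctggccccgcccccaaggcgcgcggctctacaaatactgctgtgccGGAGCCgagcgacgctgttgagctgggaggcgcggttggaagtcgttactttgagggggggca
Smad6 (chr9:64022010-64022309, minus strand): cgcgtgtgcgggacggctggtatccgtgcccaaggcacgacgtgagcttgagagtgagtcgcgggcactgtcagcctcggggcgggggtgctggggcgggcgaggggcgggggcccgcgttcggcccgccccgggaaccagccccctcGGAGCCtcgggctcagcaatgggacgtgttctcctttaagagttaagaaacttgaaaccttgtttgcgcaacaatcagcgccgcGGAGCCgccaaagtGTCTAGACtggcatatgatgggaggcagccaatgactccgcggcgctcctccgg

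The Smad6 window held the whole palindrome GTCTAGAC, from base -4 to base 4 around the start, an element found in 70 of 32851 RefSeq windows (0.213%). None of the other 5 windows searched held it. GGAGCC was present in 6 of the 6 windows, those of Smurf1 and Smurf2 included, and in 30.8% of all windows. GGCGCC was present in Id2, Id4 and Smurf2 and in 11.9% of all windows, and CAGACA in Smurf1 and Smurf2 and in 21.0% of all. A match describes these letters only, and binding was not measured.

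None of the 10 genes passed the test between reverted and quiescent cells in limma at an adjusted p of 0.05, a threshold that 0.712% of all genes passed (0.527% with a higher and 0.186% with a lower mean in reverted cells). The reverted mean was the lower one for 7 genes and the higher one for 3. Their median log2 change was -0.17, against -0.008 over all genes. At an unadjusted p under 0.05 stood 5 of the 10 (Id1, Id2, Id3, Smad6 and Smad7), all with a lower mean, where 16.0% of all genes lay below that p in either direction. Because the 10 genes were chosen with earlier results of these data known, these figures describe them and do not test the group. In 1 of the 10 genes, Id1, the 2 groups of arrays did not overlap, as in 8.73% of all genes (4.64% with the reverted and 4.09% with the quiescent arrays on top). Genes called changed had unadjusted p values of at most 0.000354, and the smallest among the 10 was that of Id1, 0.00188. In bulk RNA, fewer cells of a type and less RNA per cell cannot be told apart.

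**Figure D1:**
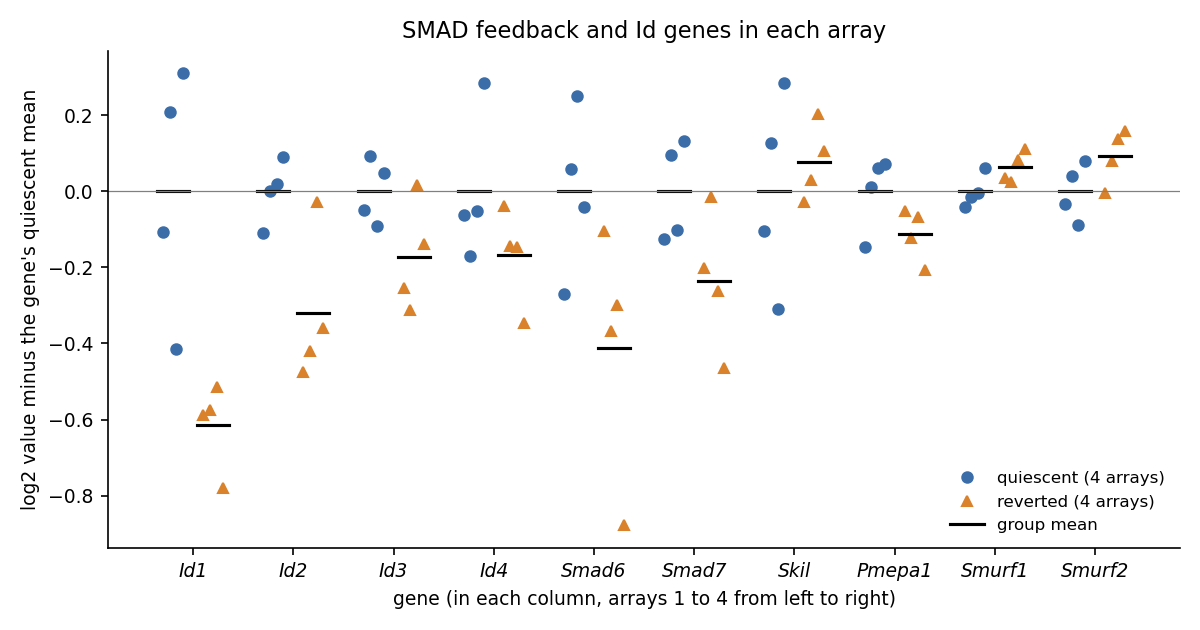
Log2 value of each gene in each array minus its mean over the 4 quiescent arrays, with quiescent arrays as circles, reverted arrays as triangles and group means as bars. The groups are separate for Id1 alone, and reverted array 3 lies among the quiescent arrays for Id2 and Id3.

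Id1 encodes the Id protein most closely tied to BMP signalling and had the widest difference of the 10. Its log2 values were 10.15, 10.46, 9.84 and 10.57 in quiescent arrays 1 to 4 and 9.67, 9.68, 9.74 and 9.47 in reverted arrays 1 to 4. The 4 reverted arrays lay close together below all quiescent arrays, while the quiescent arrays were spread, with array 3 just above the highest reverted array. The reverted mean was 0.653 of the quiescent mean on the linear scale, a log2 change of -0.61 (SE 0.14, 95% interval -0.94 to -0.29, n = 4 arrays per group, limma adjusted p = 0.105). Without quiescent array 3 the change was -0.75 and passed the test (adjusted p = 0.0298). On leaving out any other array it lay between -0.65 and -0.51 and did not pass.

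Id2, which besides its role downstream of BMP and TGF-beta restrains E proteins in many lineages, had log2 values of 12.36, 12.48, 12.49 and 12.56 in quiescent arrays 1 to 4. In reverted arrays 1 to 4 they were 12.00, 12.05, 12.44 and 12.11. Reverted arrays 1, 2 and 4 lay below every quiescent array, and array 3 lay among them. The log2 change was -0.32 (SE 0.09, interval -0.53 to -0.11, adjusted p = 0.162), and without reverted array 3 it was -0.42 and passed the test (adjusted p = 0.0371).

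Id3, a BMP target closely related to Id1, stood at 12.51, 12.65, 12.47 and 12.61 in quiescent arrays 1 to 4 and at 12.31, 12.25, 12.58 and 12.42 in reverted arrays 1 to 4. Reverted array 3 again lay among the quiescent arrays and the other 3 below them. Its log2 change was -0.17 (SE 0.07, interval -0.34 to -0.0044, adjusted p = 0.303). Id4, which is prominent in the nervous system, had the lowest level percentile of the 10 (47.9 among all genes), with quiescent values of 7.95, 7.84, 7.96 and 8.30 and reverted values of 7.98, 7.87, 7.87 and 7.67. The groups overlapped, with quiescent array 4 above all reverted arrays and reverted array 4 below all quiescent arrays. Its change of -0.17 (SE 0.10, adjusted p = 0.425) was -0.07 without quiescent array 4, -0.11 without reverted array 4 and -0.04 once the mean of the hepatocyte markers was a covariate.

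Whether the 4 Id genes differed among themselves in their change was tested on the difference of 2 log2 values within an array. The change of Id1 was more negative than that of Id2 by 0.29, than that of Id3 by 0.44 and than that of Id4 by 0.45. An exact permutation test over the 70 splits of the 8 arrays, 2-sided, gave p = 0.143, 0.0571 and 0.0286, where 0.0286 is the smallest p it can give. Over the 8 pairs compared none passed, with adjusted p of 0.286 for Id1 with Id2 and 0.229 for Id1 with Id3 and with Id4. A single pair at 0.0286 cannot pass after adjustment over 8 pairs, so this outcome does not show that the changes were alike. The array differences of Id1 and Id4 did not overlap between the groups. Id2 and Id3 differed in change by -0.15 (exact p = 0.0857, adjusted 0.229), Id2 and Id4 by -0.15 (adjusted 0.457) and Id3 and Id4 by 0.00 (adjusted 1). That of Id1 with Id2 was -0.44 without quiescent array 3, and that of Id2 with Id4 lay between -0.06 (reverted array 1 left out) and -0.24 (reverted array 3 left out).

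The inhibitory SMAD genes also had lower means. Smad6, whose product mainly restrains BMP receptors, had log2 values of 10.50, 10.83, 11.03 and 10.73 in quiescent arrays 1 to 4. In reverted arrays 1 to 4 they were 10.67, 10.41, 10.47 and 9.90. Reverted arrays 2, 3 and 4 lay below every quiescent array and reverted array 1 lay among them. The log2 change was -0.41 (SE 0.16, interval -0.78 to -0.05, adjusted p = 0.268). It rests in part on reverted array 4, without which it was -0.26 (adjusted p = 0.452).

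Smad7, which restrains both branches, stood at 11.56, 11.77, 11.58 and 11.81 in quiescent arrays 1 to 4 and at 11.48, 11.66, 11.42 and 11.21 in reverted arrays 1 to 4. Reverted array 2 lay among the quiescent arrays and the others below them. Its log2 change was -0.24 (SE 0.10, interval -0.45 to -0.02, adjusted p = 0.284), and without reverted array 4 it was -0.16. The changes of Smad6 and Smad7 differed by -0.18, which did not pass (exact permutation p = 0.343, adjusted 0.457). This difference shrank to -0.06 when quiescent array 3 was left out and to -0.10 for reverted array 4, and stood at -0.27 when reverted array 1 was dropped.

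**Figure D2:**
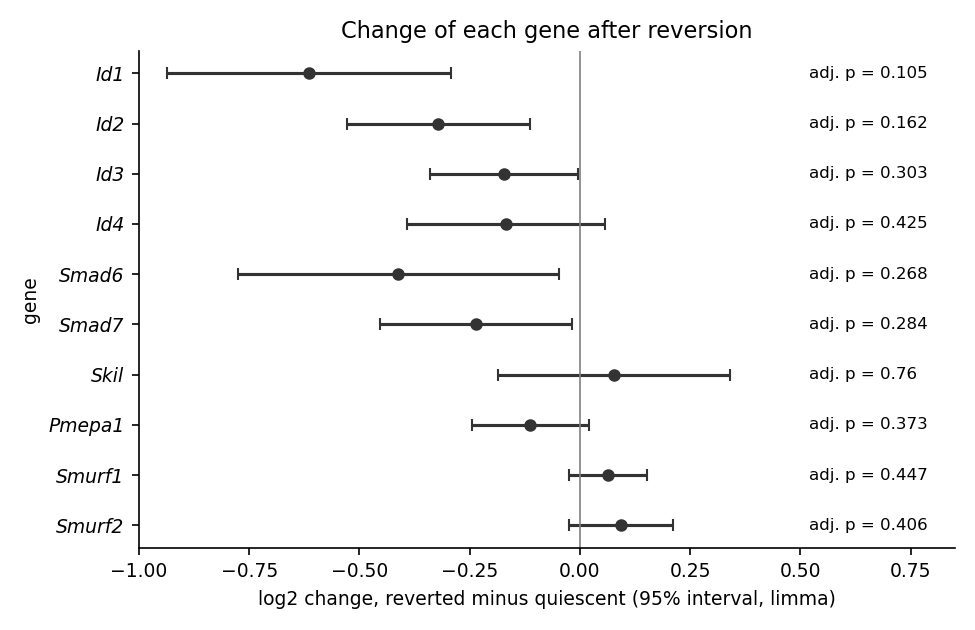
Log2 change of each gene, reverted minus quiescent (points), with 95% intervals from limma (bars) and p-values adjusted over all 19938 genes. The intervals of Id1, Id2, Id3, Smad6 and Smad7 lie below 0, and no adjusted p is under 0.05.

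The brakes linked to the TGF-beta branch showed smaller differences. Pmepa1 had log2 values of 12.36, 12.51, 12.56 and 12.57 in quiescent arrays 1 to 4 and of 12.45, 12.38, 12.43 and 12.29 in reverted arrays 1 to 4. The groups overlapped through quiescent array 1, and the change was -0.11 (SE 0.06, adjusted p = 0.373). Skil had quiescent values of 10.21, 10.44, 10.01 and 10.60 and reverted values of 10.29, 10.34, 10.52 and 10.42. All 4 reverted arrays lay inside the quiescent range, with a change of 0.08 (SE 0.12, adjusted p = 0.76) that was -0.03 without quiescent array 3.

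The ubiquitin ligase genes varied least. Smurf1 ran from 10.62 to 10.72 in quiescent and from 10.68 to 10.77 in reverted arrays, with a change of 0.06 (SE 0.04, adjusted p = 0.447). Its 95% interval on the linear scale ran from 0.982 to 1.11 times the quiescent level. Smurf2 ran from 11.51 to 11.68 in quiescent and from 11.60 to 11.76 in reverted arrays (0.09, SE 0.05, adjusted p = 0.406), with an interval of 0.983 to 1.16 times. A dimmer Smurf2 probe set, which was not the one used, ran from 8.88 to 8.99 and from 8.86 to 9.10, so that both probe sets overlapped between the groups. Smurf1 and Smurf2 differed in change by -0.03 (exact permutation p = 0.486, adjusted 0.555).

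Id1 and Smad6, which had the widest differences, were also the most variable within a group, but Skil and Id4, with smaller differences, were variable too. The SD within groups lay above percentile 90 of all genes for 5 of the 10, namely Smad6 (98.1), Id1 (97.1), Skil (94.5), Id4 (91.1) and Smad7 (90.1), while Smurf1 lay at percentile 11.1. Single arrays recurred at the extremes. Quiescent array 4 was the highest of the 8 arrays for 6 of the 10 genes (Id1, Id2, Id4, Smad7, Skil and Pmepa1). Reverted array 4 was the lowest for 5 (Id1, Id4, Smad6, Smad7 and Pmepa1) and the highest for Smurf1 and Smurf2. Leaving out quiescent array 4 gave changes of -0.51 for Id1, -0.29 for Id2, -0.43 for Smad6 and -0.19 for Smad7, and without reverted array 4 those of Id1 and Id2 were -0.56 and -0.31.

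Markers of the sort and of other cells were read on the same arrays. The mean of 14 stellate markers lay between 13.03 and 13.09 in quiescent and between 12.95 and 12.99 in reverted arrays. These values lie near the top of the scale, and the groups did not overlap (exact permutation p = 0.0286, adjusted over 8 marker lists 0.229). With 70 splits 0.0286 is the smallest p, and 1 list alone at it cannot pass after adjustment. Of the 14, 13 had a lower mean in reverted cells, 1 fell and 0 rose in limma. The one that fell was Gfap, a glial intermediate filament gene that marks quiescent stellate cells (-0.49, adjusted p = 0.0182; -0.46 and 0.0703 with reverted array 4 left out, and -0.40, -0.44 and -0.51 with adjusted p of 0.0856, 0.0743 and 0.0697 with the hepatocyte, endothelial and immediate early gene covariates). The retinol esterification gene Lrat (0.00, adjusted p = 0.997) and the filament gene Des (-0.02, adjusted p = 0.877) did not pass. Including Gfap, 3 of the 14 stood at an unadjusted p under 0.05, all with a lower mean (16.0% of all genes in either direction). Besides Gfap these were Ngfr (-0.20, adjusted p = 0.176) and Colec11 (-0.08, adjusted p = 0.31). In all 3 the reverted arrays lay below the quiescent arrays, as in 4.09% of all genes. The mean of 11 hepatocyte markers ranged from 8.18 to 9.15 in quiescent and from 8.85 to 9.34 in reverted arrays. It was lowest in quiescent array 4. All 11 had a higher mean in reverted cells, and 0 passed in limma. At an unadjusted p under 0.05 stood 5 of the 11 (16.0% of all genes in either direction). In 2 of the 11, Apoa1 (0.72, adjusted p = 0.169) and Hpx (0.44, adjusted p = 0.0981), all reverted arrays lay above the quiescent arrays, as in 4.64% of all genes. The mean of 13 endothelial markers, a cell type in which Id1, Smad6 and Smad7 are also active, ranged from 7.91 to 8.14 and from 7.97 to 8.37, 9 of the 13 had a higher mean, and the highest value was that of reverted array 4. Of these 13 genes 0 passed in limma (2 at an unadjusted p under 0.05, near the 16.0% of all genes in either direction). Clec4g, of sinusoidal endothelium, had a log2 change of 0.50 (adjusted p = 0.063). All 4 reverted arrays lay above the quiescent arrays for Clec4g, as in 4.64% of all genes. Lyve1 had one of 0.24 (adjusted p = 0.288) and the pan-endothelial gene Pecam1 one of 0.02 (adjusted p = 0.891). The 4 with a lower mean were Tek (-0.10), Vwf (-0.09), Erg (-0.02) and Tie1 (-0.003). The mean of 18 immediate early genes, which respond to handling, ranged from 12.54 to 12.81 and from 12.72 to 12.86, with its lowest value in quiescent array 3, where Id1, Id3, Skil and Smurf2 were also lowest within their group and Smad6 was highest of all 8 arrays. Of the 18 genes 13 had a higher mean in reverted cells and 0 passed. In 2 of the 18, Myc (0.70, adjusted p = 0.082) and Klf6 (0.30, adjusted p = 0.141), all reverted arrays lay above the quiescent arrays, as in 4.64% of all genes. Macrophage, mesothelial and portal fibroblast, biliary and lymphocyte marker means overlapped between the groups, as did the hepatocyte, endothelial and immediate early gene means. All 4 reverted arrays lay above the quiescent arrays for Lyz2 of the macrophage list (0.59, adjusted p = 0.129). The same held for Cd34 of the mesothelial and portal fibroblast list (0.60, adjusted p = 0.0631), and for 4.64% of all genes. In that list Pi16 (-0.10, adjusted p = 0.284) had all reverted arrays below the quiescent arrays, as in 4.09% of all genes. Eln (-0.34, adjusted p = 0.118) was lower on average, with groups that overlapped. Means were lower for 7 of the 12 genes of the first list and 10 of the 11 of the second, and 0 passed. With the hepatocyte mean as a covariate the log2 changes of Id1, Id2, Smad6 and Smad7 were -0.54, -0.29, -0.54 and -0.20. With the endothelial mean they were -0.56, -0.33, -0.32 and -0.16, and with the immediate early gene mean -0.71, -0.32, -0.25 and -0.21. None of these passed.

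The rest of the pathway was read from 7 lists. Of 13 ligand genes measured, 1 rose, 0 fell and 12 did not pass, with a median log2 change of -0.002. At an unadjusted p under 0.05 stood 6 of the 13, 5 higher and 1 lower (16.0% of all genes in either direction). In 3 all reverted arrays lay above the quiescent arrays, as in 4.64% of all genes. The one that rose was Bmp6, a BMP ligand that controls hepcidin in the liver, from 8.65 ± 0.16 to 9.57 ± 0.05 (SD, n = 4). Its log2 change of 0.92 (SE 0.08, limma adjusted p = 0.00171) passed without any 1 of the 8 arrays. The TGF-beta ligand genes Tgfb2 (0.70, adjusted p = 0.123) and Tgfb3 (0.44, adjusted p = 0.133) did not pass. Bmp6 was higher in all 4 reverted arrays than in any quiescent array, as were 4.64% of all genes. Id1, a target of BMP signals, was lower in all 4, as were 4.09% of all genes, but did not pass (adjusted p = 0.105). The BMP ligand genes Bmp2 (0.04), Bmp4 (-0.02), Bmp5 (-0.03), Bmp7 (-0.09), Bmp10 (0.15) and Gdf2 (-0.002) did not pass either. A link between Bmp6 and Id1 was not tested.

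Of 16 receptors and co-receptors 0 passed in either direction, with a median log2 change of -0.04. At an unadjusted p under 0.05 stood 4 of the 16 (16.0% of all genes in either direction). In 2 of the 16 all reverted arrays lay above the quiescent arrays and in 1 below them, against 4.64% and 4.09% of all genes. The activin receptor genes Acvr1b (0.45, adjusted p = 0.0548) and Acvr1c (-0.81, adjusted p = 0.137) and the TGF-beta receptor gene Tgfbr1 (0.30, adjusted p = 0.153) had the smallest p, and Acvr1b passed under 8 alternatives, among them quantile normalization (adjusted p = 0.0415). All 6 signalling SMAD genes had a higher mean, by 0.01 to 0.12, and 0 passed (0 at an unadjusted p under 0.05, against 16.0% of all genes). Smad1 (0.12, adjusted p = 0.315), Smad2 (0.09, adjusted p = 0.609) and Smad3 (0.05, adjusted p = 0.803) led by p. Without quiescent array 2 the change of Smad2 was 0.00, and that of Smad3 was -0.01 without reverted array 3.

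Of 11 secreted and membrane inhibitors 1 rose, 0 fell and 10 did not pass. Of the 11, 3 had an unadjusted p under 0.05, 2 higher and 1 lower (16.0% of all genes in either direction). Bmper, which binds BMPs outside the cell, rose from 8.87 ± 0.24 to 9.61 ± 0.21 (SD). Its log2 change was 0.73 (SE 0.13, adjusted p = 0.0474). Its adjusted p was 0.114 and 0.108 when quiescent array 1 and 3 were left out, and 0.0942, 0.15 and 0.131 when reverted array 2, 3 and 4 were, with log2 changes between 0.64 and 0.75. With the hepatocyte, endothelial or immediate early gene covariate its adjusted p was 0.103, 0.147 or 0.125, at log2 changes of 0.76, 0.73 and 0.78. The BMP antagonist gene Chrdl1 (-0.33, adjusted p = 0.149) and the activin-binding Fstl3 (0.20, adjusted p = 0.176) came next.

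Of 17 other SMAD-responsive genes 1 fell, 0 rose and 16 did not pass, with a median log2 change of -0.05. Of the 17, 3 had an unadjusted p under 0.05, 1 higher and 2 lower, near the share of all genes (16.0% in either direction). Hey1, a target of Notch and of BMP signals, fell by 0.59 (SE 0.09, adjusted p = 0.0273). Leaving out quiescent array 1 (0.0875) or reverted array 1 (0.055), 2 (0.0772) or 4 (0.0981) ended its call, as did the hepatocyte (0.0889), the endothelial (0.105) and the immediate early gene covariate (0.125). Its log2 change lay between -0.61 and -0.55 in these leave-outs and was -0.62, -0.57 and -0.53 with the 3 covariates. The connective tissue growth factor gene Ccn2 (0.64, adjusted p = 0.195) and the homeobox gene Msx1 (-0.16, adjusted p = 0.214) did not pass, and Ccn2 passed without quiescent array 4 (0.83, adjusted p = 0.0459).

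Of 14 SMAD turnover and corepressor genes 0 passed (1 at an unadjusted p under 0.05, against 16.0% of all genes in either direction). The corepressor gene Ski, the closest relative of Skil, had a log2 change of -0.14 (adjusted p = 0.168). All 4 reverted arrays lay below the quiescent arrays for Ski, as in 4.09% of all genes. Trim33 (0.07, adjusted p = 0.398) and Stambp (0.11, adjusted p = 0.441) followed, and Stambp stood at 0.06 without quiescent array 2 and at 0.17 without quiescent array 3. Of 12 bHLH genes, the partners and relatives on which Id proteins act, 0 passed. At an unadjusted p under 0.05 stood 2 of the 12, near the share of all genes (16.0% in either direction). Twist2 (0.26, adjusted p = 0.168), Tcf15 (-0.16, adjusted p = 0.294) and the stellate lineage factor gene Tcf21 (-0.20, adjusted p = 0.324) had the smallest p.

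**Figure D3:**
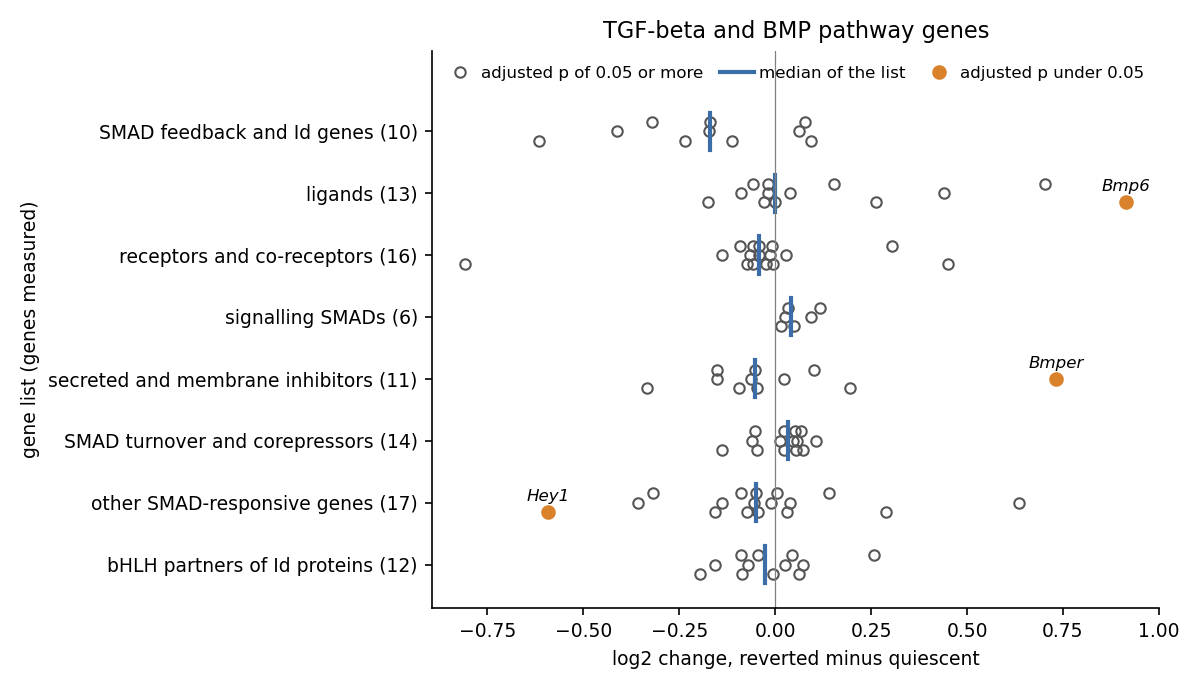
Log2 change, reverted minus quiescent, of each measured gene (circles) in the SMAD feedback and Id group and in the 7 pathway lists, with the number measured in brackets, list medians as bars and genes with an adjusted p under 0.05 filled. Bmp6, Bmper and Hey1 are filled, and the SMAD feedback and Id genes have the lowest median, -0.17. Genes and lists were chosen with earlier results of these data known.

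Likeness to Id1 was measured as the root mean square difference between 2 profiles over the 8 arrays, each gene centred on its own mean. The 5 closest of 19937 genes were Pxdc1 (0.13), Creb5 (0.19), the heparan sulfate sulfotransferase gene Hs6st3 (0.19), Cobll1 (0.22) and Elmo1 (0.22), against 0.37 for a flat profile. Of these, Hs6st3 passed in limma (-0.70, adjusted p = 0.00801), and Pxdc1 (-0.44, adjusted p = 0.173), Creb5 (-0.36, adjusted p = 0.234), Cobll1 (-0.31, adjusted p = 0.171) and Elmo1 (-0.39, adjusted p = 0.0599) did not. The 5 were picked for likeness to Id1 on the same arrays, and Id1 is low in the reverted ones. Their lower reverted means follow from that choice and are no separate support. Among the other 9 genes of the group, Smad7 was the closest to Id1 (0.25, rank 28), followed by Id2 (0.26, rank 55), Id3 (0.29, rank 182) and Id4 (0.29, rank 216). Smad6 lay at rank 1460 and Smurf1 and Smurf2 at ranks 13262 and 13419.

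**Figure D4:**
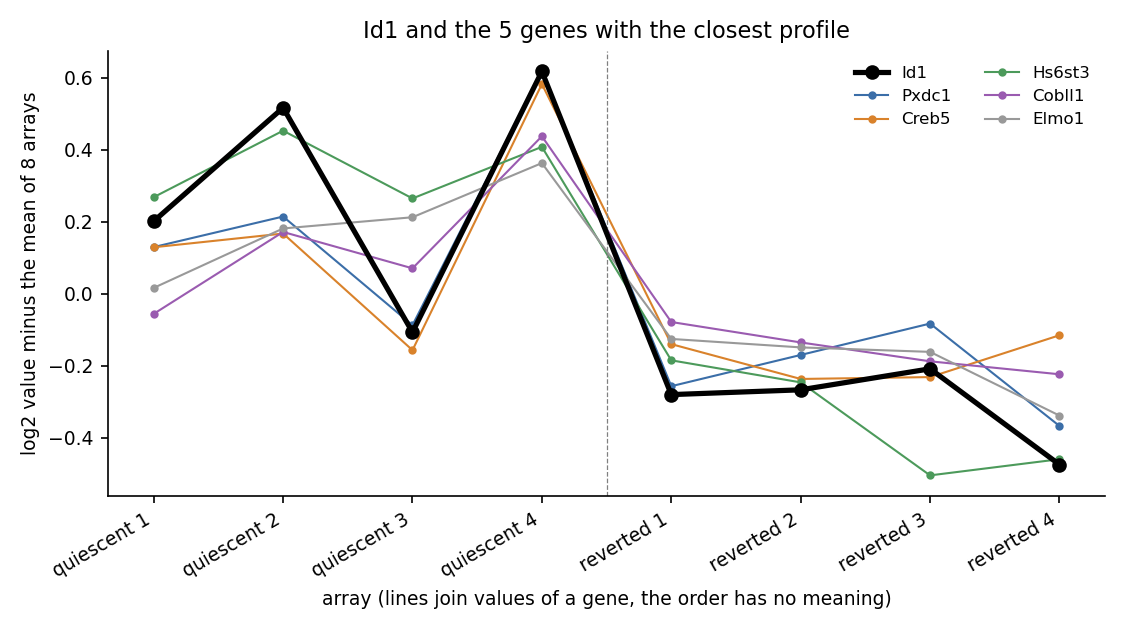
Log2 value minus the mean of the 8 arrays for Id1 (thick line) and the 5 genes with the closest profile, by array. Id1 and 4 of the 5 other genes (all but Hs6st3) are highest in quiescent array 4, and Id1, Pxdc1 and Creb5 share a low value in quiescent array 3.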

How the data were processed

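The deposited values are log2 expression values that the authors made with RMA, per the submitters' processing notes; RMA corrects background, normalizes across arrays and summarises each probe set, while its version and settings, and the genome build, are not given in the sources used here. All 8 columns were matched to samples by name. Array medians lay between 7.66 and 7.74, and the precision is limited by the number of arrays. Of 35556 probe sets, 21789 have 1 gene symbol in the platform annotation, 1621 have several and 12146 are unnamed here. Where a gene had several, the one brightest on average was kept, which left 19938 genes with no filter on dim ones. The comparison used limma 3.58.1 (lmFit, eBayes; R 4.3.3), 2-sided, with Benjamini-Hochberg adjustment over all 19938 genes, a procedure tested on simulated data. Gene pairs and marker means were compared with exact permutation tests over arrays. Tables and plots used Python 3.11.15, pandas 2.3.3 and matplotlib 3.10.9. The members and lists were chosen with earlier results of these data known. Named were the 10 genes, in each pathway list the genes that passed and the 3 with the smallest p, and the 5 genes most like Id1. Of the marker genes, Gfap was named because it passed, and the others were named by no fixed rule. Some list entries are not analysed here. Alternatives were quantile normalization, median centring, filters on the lowest 25% and lower 50% of genes, the mean of all probe sets, array weights, a robust variance with an intensity trend, the replicate number as a block, 3 marker covariates and leaving out each array.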

Additional observations from a re-analysis of the deposited data

How the results depend on the processing

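Of 189 values of the 10 genes under the alternatives, 185 kept their direction and their side of the threshold. The filters, the intensity trend and the replicate block cannot alter a log2 change, only its p. The mean of all probe sets alters it for Smurf2 alone among the 10, so part of this tally could not show a turn in direction. Id1 passed without quiescent array 3 (-0.75, adjusted p = 0.0298) and Id2 without reverted array 3 (-0.42, adjusted p = 0.0371), so that between 0 and 1 of the 10 genes passed with an array left out, and 0 under every other alternative. Skil turned to -0.02 with the immediate early gene covariate and ranged from -0.03 (without quiescent array 3) to 0.17 with arrays left out. Among the pathway genes and Gfap, for which the alternatives were run after seeing the data, Smad3 turned to -0.04 with the hepatocyte covariate, -0.03 with the endothelial covariate and ranged from -0.01 (without reverted array 3) to 0.13 with arrays left out. The difference between Smurf1 and Smurf2 turned to 0.00 with the mean of all probe sets, and that between Id3 and Id4 ranged from -0.08 to 0.08 with arrays left out (0.00 and 0.08 on leaving out quiescent arrays 1 and 2, 0.07 and 0.05 on leaving out reverted arrays 1 and 2). The lymphocyte marker mean turned to -0.01, -0.03 and -0.02 without quiescent array 2, quiescent array 4 and reverted array 2. The count of all genes called, 142, was 306 with array weights, 80, 53 and 58 with the hepatocyte, endothelial and immediate early gene covariates, and 54 to 247 with an array left out (reverted array 4 gave 54, reverted array 3 gave 59, quiescent array 1 gave 73 and quiescent array 4 gave 247). Rises made up 73.9% of the calls (105 higher, 37 lower), 84.8% after median centring (117 higher, 21 lower) and 67.1% after quantile normalization (110 higher, 54 lower). With the replicate number as a block 63 genes and 0 of the 10 passed, and Gfap did not (adjusted p = 0.0867). Arrays of the same number did not deviate together (correlations -0.15, -0.03, -0.02 and 0.08, and 0 of the 4 arrays of either group correlated best with its own number), so the numbers were not taken as pairs. The exact pair test within 4 numbers cannot pass the threshold. Id4 was not tested without the lower 50% of genes. The causes were not tested.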
